A study of Homo sapiens with 24 samples.

Results

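The Wnt and beta-catenin genes described here are 10 genes picked by name: the ligands WNT5A and WNT6, the receptor FZD3, the transducers DVL1, DVL3, AXIN2 and CTNNB1, the nuclear factors TCF7L2 and LEF1, and the secreted inhibitor DKK1. They were represented by 19 of 41000 gene probes and by 28 of 43376 gene spots, among 30982 gene names on the array. They were chosen because CTNNB1, WNT5A and WNT6 were higher after protons, so the values for protons alone are given as a description, with no test. In the Wnt pathway, a ligand bound by a Frizzled receptor and its co-receptor acts through Dishevelled proteins to stop the Axin complex from marking beta-catenin, the product of CTNNB1, for degradation. Beta-catenin then enters the nucleus and drives transcription together with TCF and LEF factors, and AXIN2, LEF1 and DKK1 are themselves known targets that feed back on the pathway. WNT5A is best known for signalling without beta-catenin, and the pathway is studied in glioblastoma for its part in stemness and invasion.

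U87 MG is an established human glioblastoma cell line, and Si306 is an inhibitor of Src family kinases that was used at 10 µM. Cells were collected 24 h after proton irradiation. There were 4 configurations on Agilent whole-genome arrays that compare a pair of RNAs by colour: cells given 2 Gy and cells given 10 Gy of protons alone (PT), both set against untreated U87, and the combinations Si306 + 2 Gy and Si306 + 10 Gy, each set against PT of its own dose. No configuration held Si306 without protons, and a single cell line was used. The red dye Cy5 always labelled the treated RNA and the green dye Cy3 its control, with no dye swap, so in any one configuration a dye effect cannot be told apart from the treatment. A dye effect that is the same on all arrays cancels in the difference between the 2 doses.

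The labels listed 6 biological replicates in each configuration, but the file headers named 8 arrays on 2 slides, each array scanned 3 times. Repeat scans were averaged, which left 2 arrays for each configuration. PT arrays lay on one slide and Si306 arrays on the other. Of the 24 scans, 2 carried the label of the other proton dose than their array and were left out. The log2 ratios of these scans differed from the other scans of their arrays by an SD of 0.0772 and 0.0757, and from the scans of their own label by 0.178 and 0.171. The median SD was 0.0738 between scans of an array and 0.106 between scans of the paired arrays. Adjusted p-values therefore measure the spread between arrays, whose RNA may not come from separate cultures. In single scans, 63.4% to 74.7% of gene spots were well above background in Cy5 and 57.3% to 66.5% in Cy3. Of 9 glioma line markers, 6 were well above background on all arrays (VIM, NES, CD44, FN1, GFAP and EGFR, but not S100B, FABP7 and CHI3L1). This was also so for 2 of 4 epithelial, 2 of 4 immune and 1 of 3 endothelial markers. The leukocyte gene PTPRC and the keratin KRT5 were above background on no array.

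The probes are shown first because probes of the same gene gave different values. Each is a 60-base sequence, and coordinates are those of the array files (hg17). Transcript models of that build were not used here, so exon and UTR positions are not stated. Capitals mark G and C, since the GC content of a probe went with its log2 ratio after protons. Both probes of CTNNB1 lie on the plus strand of chromosome 3, at chr3:41256753-41256812 (35% GC, 10 spots on each array) and at chr3:41256258-41256317 (38.3% GC, 1 spot), with starts 495 bases apart. Their first 30 bases are:
CTNNB1 A_23_P29495: tGatCaaaaaCtatttGGGatatGtatGGG
CTNNB1 A_23_P29499: aGtttCCtatGGGaaCaattGaaGtaaaCt

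The single probe of WNT5A lies on the minus strand at chr3:55476693-55476752 (35% GC). The probes of WNT6 lie on the plus strand at chr2:219563785-219563844 (76.7% GC) and chr2:219564357-219564416 (55% GC), 572 bases apart. The first of these holds no stop codon in any of the 3 reading frames. Of the DVL1 probes, both on the minus strand, the one at chr1:1311443-1311502 has 55% GC and the one at chr1:1310642-1310701 has 45%. The sequences below are those of the WNT6 and DVL1 probes with the highest ratios after protons, in full, and the first 30 bases of the WNT5A probe and of the second WNT6 probe:
WNT6 A_24_P208513: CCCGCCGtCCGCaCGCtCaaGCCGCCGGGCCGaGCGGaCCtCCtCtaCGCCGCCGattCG
DVL1 A_23_P347432: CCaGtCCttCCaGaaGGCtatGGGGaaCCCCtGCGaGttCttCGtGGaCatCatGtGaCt
WNT5A A_23_P211926: CtGtCttGCGtGatttGtatatttCaCtGG
WNT6 A_23_P119916: tGGaaaaaaGCCaGtCtaaaGGCCtCtGGa

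After protons, WNT6, WNT5A, CTNNB1 and DVL1 each had a probe at least 2-fold above untreated cells within the PT slide, and the other members did not. In a model of both slides, described below, the WNT5A probe and these WNT6 and DVL1 probes lay below untreated cells and AXIN2 A_23_P148015 lay over 2-fold above them. All values that follow are log2 ratios of Cy5 to Cy3 unless another scale is named. At 2 Gy 4 of the 19 probes were past 2-fold and higher, and at 10 Gy 2 were, where 0.645% and 0.779% of all tested probes were. None was past 2-fold and lower, beside 0.0428% and 0.135% of all probes. These counts follow from how the genes were picked. Over all 19 probes the median was 0.01 at 2 Gy and 0.00 at 10 Gy, beside 0.02 and 0.01 over all probes.

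**Figure D1:**
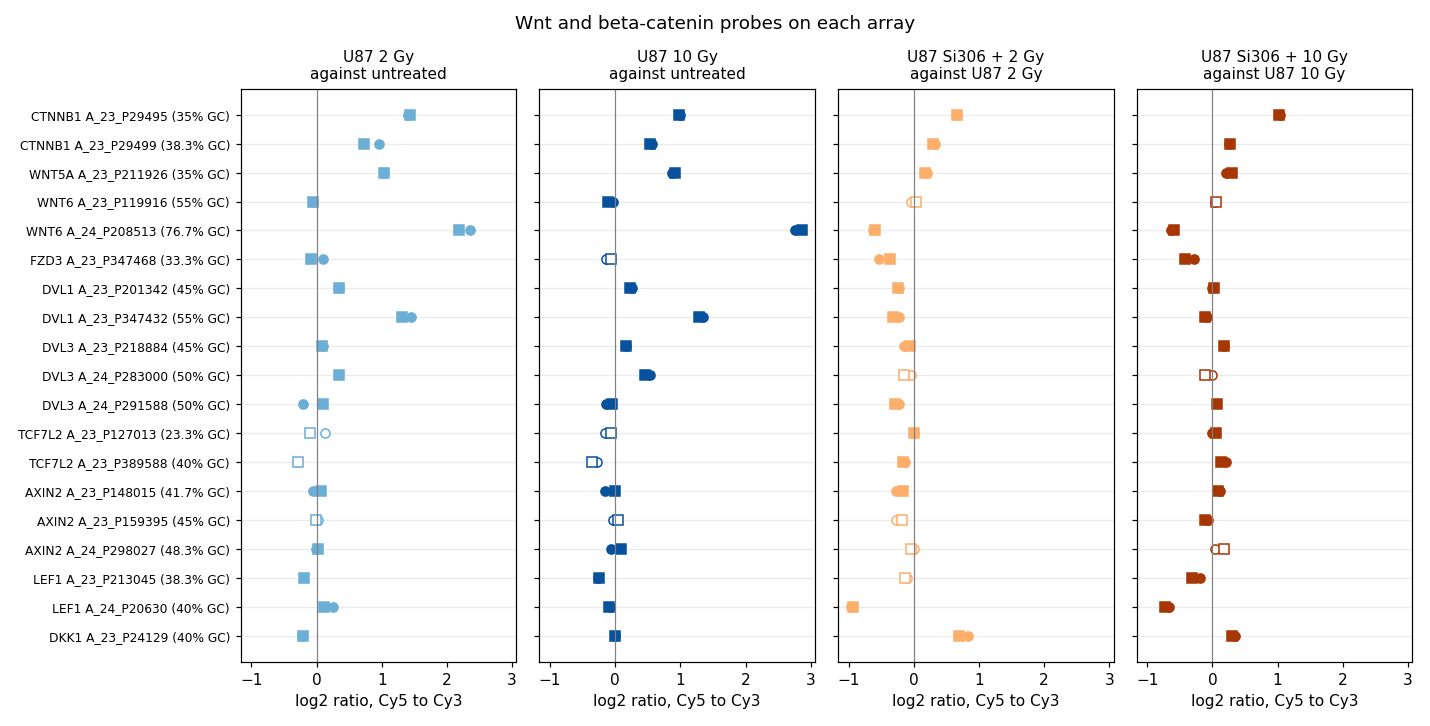
Log2 ratio of Cy5 to Cy3 (x axis) for every probe of the 10 genes (rows) in the 4 configurations (panels); circles are array 1 and squares array 2, and open symbols mark a probe that was not well above background in one or both channels. WNT6 A_24_P208513 stands at 2.19 to 2.87 after protons and at -0.64 to -0.59 with Si306, while LEF1 A_24_P20630 and DKK1 lie on opposite sides of 0 in both Si306 panels.

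WNT6 had the highest ratio of the 10 genes within the PT slide, though this probe turned in a model of both slides (-0.98 and -0.54), where CTNNB1 A_23_P29499 was highest (3.63 and 3.42). Its GC-rich probe, A_24_P208513, read 2.36 and 2.19 on the U87 2 Gy arrays and 2.75 and 2.87 on the U87 10 Gy arrays. In bulk RNA a change in the share of cells and a change in RNA per cell cannot be told apart. The means were 2.28 ± 0.04 and 2.81 ± 0.04 (SE, n = 2 arrays each), or 4.84-fold and 7-fold. The 10 Gy mean was higher by 0.53 ± 0.06 (SE), and the arrays of the doses did not overlap. The second WNT6 probe, A_23_P119916, gave no such change. It read -0.05 and -0.05 at 2 Gy and -0.03 and -0.11 at 10 Gy, with both channels well above background.

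WNT5A read 1.04 and 1.03 at 2 Gy and 0.87 and 0.92 at 10 Gy, with means of 1.03 ± 0.04 and 0.90 ± 0.04 (SE, n = 2). Within the PT slide it stood about 2-fold above untreated cells at both doses, and the higher dose gave the lower value by 0.14 ± 0.05. The model of both slides gave -3.24 and -3.36.

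CTNNB1 was higher on every PT array by both of its probes. The probe printed in 10 copies, A_23_P29495, read 1.41 and 1.43 at 2 Gy and 1.00 and 0.98 at 10 Gy (means 1.42 ± 0.03 and 0.99 ± 0.03, SE, n = 2). The other probe, A_23_P29499, read 0.96 and 0.73 at 2 Gy and 0.57 and 0.53 at 10 Gy. At 2 Gy its Cy3 channel, the untreated cells, was well above background on only 1 of 2 arrays. On the PT slide both probes were lower at 10 than at 2 Gy, by 0.43 ± 0.04 and 0.30 ± 0.07 (SE). For neither probe did the doses overlap there. The Si306 slide, which held the same PT conditions in Cy3, did not repeat this. In normalized log2 intensity, A_23_P29495 read 10.96 at 2 Gy and 11.27 at 10 Gy on it, and A_23_P29499 10.1 at both doses. These intensities are not ratios to untreated cells.

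Among the Dishevelled genes, which relay the receptor signal, the 2 probes of DVL1 differed in size. A_23_P347432 read 1.45 and 1.31 at 2 Gy and 1.35 and 1.29 at 10 Gy, whereas A_23_P201342 read 0.35 and 0.34 at 2 Gy and 0.26 and 0.22 at 10 Gy. Centring each scan on its median, in place of the intensity curve, gave 1.07 and 0.85 for A_23_P201342, and the model of both slides -0.22 and -0.23, with -0.67 and -0.68 for A_23_P347432. DVL3 has 3 probes, of which A_24_P283000 read 0.35 on the only U87 2 Gy array with a value and 0.53 and 0.45 at 10 Gy. Its other probes stayed between -0.21 and 0.17.

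In this scaling the receptor, the inhibitor and the nuclear partners lay nearer to 0 after protons. FZD3, a Frizzled receptor, read between -0.14 and 0.10, close to background, with -0.42 and -0.48 under median centring and 0.56 and 0.48 in the model of both slides. LEF1 probe A_24_P20630 read 0.26 and 0.11 at 2 Gy and -0.08 and -0.10 at 10 Gy, and 0.78 and 0.41 under median centring. The second LEF1 probe, A_23_P213045, read -0.19 at 2 Gy (1 array) and -0.26 and -0.25 at 10 Gy. DKK1, a secreted inhibitor that binds the co-receptor, read -0.22 and -0.21 at 2 Gy and -0.01 and 0.00 at 10 Gy, with 0.46 and 0.55 under median centring. AXIN2, a scaffold of the degradation complex and a common readout of the pathway, had 3 probes between -0.16 and 0.09 on the PT arrays, though the model of both slides described below gave 1.38 and 1.30 for A_23_P148015. For TCF7L2, probe A_23_P127013 was not well above background in either channel at either dose. The other TCF7L2 probe, A_23_P389588, was below that level in both channels at 2 Gy and in Cy5 at 10 Gy, where the bound was at least 1.17-fold lower than untreated. The same held for AXIN2 probe A_23_P159395 in both channels at both doses.

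GC content went with the log2 ratio on the PT arrays. Among all probes with 70% GC or more, 22.5% at 2 Gy and 28.1% at 10 Gy were at least 2-fold higher than untreated, against 0.122% and 0.0444% of probes with 35% to 40% GC. With Si306 these shares for GC-rich probes were 1.03% and 0. WNT6 A_24_P208513 belongs to the GC-rich probes, whose 90th percentile was 1.77 at 2 Gy and 2.29 at 10 Gy. CTNNB1 and WNT5A belong to the 35% to 40% range, where the 90th percentile was 0.28 at both doses. After a curve on GC content was taken out of each scan, WNT6 A_24_P208513 read 1.73 and 2.12, CTNNB1 A_23_P29495 1.42 and 1.00, and WNT5A 1.03 and 0.90. What part GC content has in the WNT6 value was not tested.

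**Figure D2:**
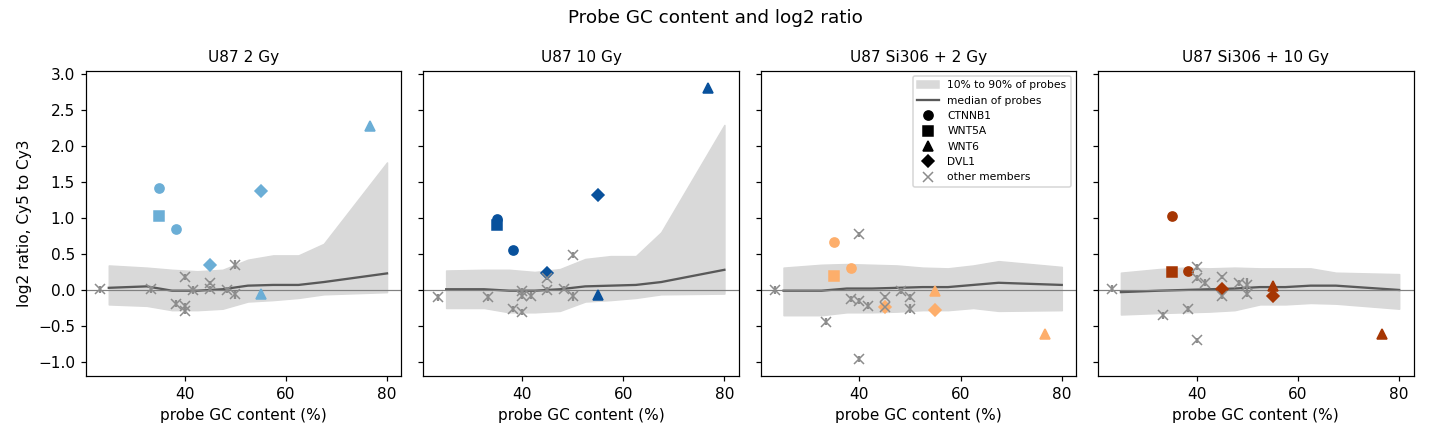
Log2 ratio of Cy5 to Cy3 (y axis, mean of 2 arrays with SE bars) against the GC content of the probe in percent (x axis) in the 4 configurations; the line is the median and the band the range from 10% to 90% of all tested probes in bins of GC content, drawn at bin centres. On PT arrays the band widens upward among GC-rich probes, where WNT6 A_24_P208513 lies, while CTNNB1 and WNT5A lie above the band at 35% GC.

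The same labelled PT condition was measured on both slides, in Cy5 on the PT slide and in Cy3 on the Si306 slide, and several member probes did not give the same brightness. The following values are normalized log2 intensities. WNT5A read 12.08 for U87 2 Gy on the PT slide and 7.74 on the Si306 slide, and 11.88 and 7.69 for U87 10 Gy. WNT6 A_24_P208513 was dimmer on the Si306 slide by 3.05 at 2 Gy and 3.57 at 10 Gy, and DVL1 A_23_P347432 by 2.21 and 1.85. CTNNB1 A_23_P29499 was brighter there by 2.70 and 2.96. CTNNB1 A_23_P29495 was dimmer on the Si306 slide by 0.35 at 2 Gy but brighter by 0.46 at 10 Gy. The slides thus differed in the direction of its change with dose. For LEF1 A_24_P20630 and DKK1, the slides differed by at most 0.35. Over all tested probes this difference had a median of -0.08 and an SD of 1.18 at 2 Gy, and 2.87% of probes differed by more than 8-fold. Slide and dye changed together here, and their parts cannot be told apart.

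A further model tied both slides together through the shared PT conditions, with a dye effect for each probe (the 2-slide model). It had no term for the slide, so it counted a difference between slides as dye, although these cannot be told apart here. Its values hold only under that assumption. In this model the direction of several PT values turned. WNT5A became -3.24 at 2 Gy and -3.36 at 10 Gy, WNT6 A_24_P208513 -0.98 and -0.54, and DVL1 A_23_P347432 -0.67 and -0.68. CTNNB1 A_23_P29495 kept its direction in that model, at 1.37 and 1.15, and CTNNB1 A_23_P29499 read 3.63 and 3.42 there. Members near 0 within the PT slide also became larger, with AXIN2 A_23_P148015 at 1.38 and 1.30 and TCF7L2 A_23_P389588 at 0.91 and 0.95. The PT ratios of WNT5A, WNT6 and DVL1 given above are those within the PT slide alone.

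**Figure D3:**
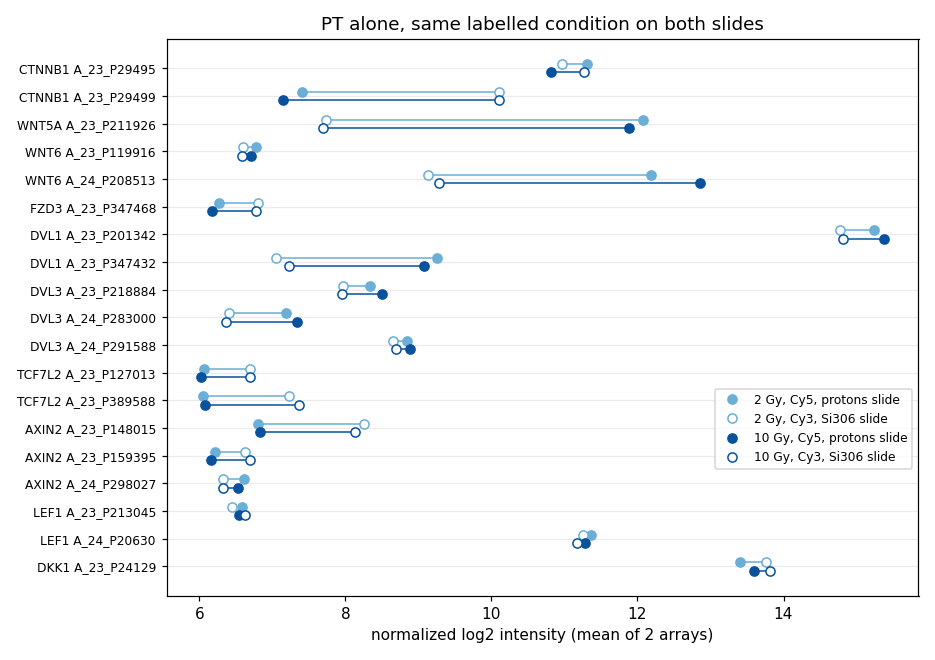
Normalized log2 intensity (x axis, mean of 2 arrays) of each member probe (rows) for U87 2 Gy and U87 10 Gy, in Cy5 on the slide of the PT arrays (filled) and in Cy3 on the slide of the Si306 arrays (open), with a line joining the same labelled condition. WNT5A differs by 4.34 at 2 Gy and 4.19 at 10 Gy, while LEF1 A_24_P20630 differs by 0.12 and 0.11.

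With Si306 added to 2 Gy, CTNNB1, WNT5A and DKK1 rose and LEF1, WNT6 and FZD3 fell relative to 2 Gy alone, though WNT5A and FZD3 turned in the 2-slide model and WNT6 read 0.00 under median centring of the scans. LEF1 and DKK1 had the largest changes among the members in this scaling, whereas CTNNB1 A_23_P29495 (1.58) and DVL1 A_23_P201342 (1.04) exceeded LEF1 (-0.09) under median centring, and WNT5A was largest in the 2-slide model (-4.09). In limma's test, adjusted over all probes, 15 of 19 member probes passed an adjusted p of 0.05, of which 4 were higher and 11 lower. That is 78.9%, where 64.8% of all probes passed. Higher were 36.3% and lower 28.5% of all probes. Under median centring, in place of an intensity curve, 8 member probes were higher and 8 lower, where 60.4% and 28.9% of all probes were, and in the 2-slide model 7 and 8 of 16, where 38.6% and 42.8% were. Of the 11 lower probes, 9 were well above background in both channels, and the other 2 were LEF1 A_23_P213045 and AXIN2 A_23_P159395. The members' median was -0.13, beside 0.03 over all probes.

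With Si306 added to 10 Gy, CTNNB1, WNT5A and DKK1 rose again and LEF1, WNT6 and FZD3 fell again, and one probe of DVL3 and one of TCF7L2 rose as well, though WNT5A (-4.01), FZD3 (0.22) and the DVL3 probe (-0.29) turned in the 2-slide model. Of 19 probes 10 passed, 6 higher and 4 lower, and all 10 were measured in both channels. That is 52.6%, where 60.9% of all probes passed, 33.1% higher and 27.8% lower. Under median centring 9 member probes were higher and 7 lower, where 55.8% and 24.1% of all probes were, and in the 2-slide model 8 and 7 of 16, where 37.7% and 44.3% were. The median was 0.05, beside 0.02 over all probes.

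LEF1, the TCF family factor best known as a target and partner of beta-catenin, read -0.97 and -0.94 with Si306 + 2 Gy and -0.67 and -0.73 with Si306 + 10 Gy by probe A_24_P20630. The means were -0.96 ± 0.04 (SE, n = 2, adjusted p = 1.06e-08, limma) and -0.70 ± 0.04 (adjusted p = 1.18e-07, limma), with all 4 arrays below 0. Under median centring these became -0.09 and -0.12, and the first no longer passed. The second LEF1 probe, A_23_P213045, was not well above background with Si306 + 2 Gy and read -0.19 and -0.32 with Si306 + 10 Gy, where 1 of 2 arrays was above background in each channel.

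DKK1 moved the other way. It read 0.83 and 0.70 with Si306 + 2 Gy (mean 0.77 ± 0.04, SE, n = 2, adjusted p = 3.23e-08, limma), and 0.34 and 0.30 with Si306 + 10 Gy (mean 0.32 ± 0.04, adjusted p = 2.34e-05, limma). In fold this was 1.70 and 1.25, and the arrays of the doses did not overlap. DKK1 kept its direction and passed in each way of scaling that was tried, with 1.98 and 1.10 under median centring and 1.06 and 0.59 in the 2-slide model.

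CTNNB1 rose with Si306 by both of its probes. A_23_P29495 read 0.66 and 0.66 with Si306 + 2 Gy (adjusted p = 2.39e-08, limma) and 1.03 and 1.02 with Si306 + 10 Gy (adjusted p = 2.68e-09, limma). A_23_P29499 read 0.33 and 0.29 at 2 Gy and 0.26 and 0.27 at 10 Gy (adjusted p = 0.000146 and 0.000578, limma), and 3.12 at both doses in the 2-slide model. Under median centring A_23_P29495 read 1.58 at 2 Gy and 1.65 at 10 Gy, and A_23_P29499 1.14 and 0.81. On these arrays, as on the PT arrays, the treated RNA was in Cy5.

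WNT5A rose by little with Si306, to 0.20 and 0.17 at 2 Gy and 0.20 and 0.30 at 10 Gy (adjusted p = 0.000816 and 0.000124, limma). These became -4.09 and -4.01 in the 2-slide model. WNT6 A_24_P208513 fell, to -0.62 and -0.59 at 2 Gy and -0.64 and -0.59 at 10 Gy (adjusted p = 5.71e-07 and 6.74e-07, limma), with 0.00 and -0.18 under median centring and -3.88 and -3.96 in the 2-slide model. The second WNT6 probe was not well above background in Cy3 on any Si306 array and did not pass (0.05 ± 0.04 at 10 Gy, or 1.04-fold, adjusted p = 0.24, limma).

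FZD3 read -0.53 and -0.36 with Si306 + 2 Gy and -0.29 and -0.42 with Si306 + 10 Gy (adjusted p = 2.68e-05 and 0.000173, limma), and 0.12 and 0.22 in the 2-slide model. Both DVL1 probes fell with Si306 + 2 Gy, by 0.23 ± 0.03 and 0.28 ± 0.04 (SE), and neither passed with Si306 + 10 Gy (0.01 and -0.09). Under median centring the brighter of them, A_23_P201342, read 1.04 at 2 Gy and 0.86 at 10 Gy. In the 2-slide model both DVL1 probes fell at both doses, to -0.75 and -0.50 for A_23_P201342 and to -2.33 and -2.10 for A_23_P347432. The remaining changes were small. DVL3 A_23_P218884 read -0.10 at 2 Gy and 0.18 at 10 Gy, TCF7L2 A_23_P389588 -0.15 and 0.17, and AXIN2 A_23_P148015 -0.22 and 0.10, the last of which did not pass. At 2 Gy the DVL3 and AXIN2 probes turned under median centring (0.27 and 0.23) and the TCF7L2 and AXIN2 probes in the 2-slide model (1.07 and 1.17), as did the DVL3 probe at 10 Gy (-0.29). A second DVL3 probe, A_24_P291588, read -0.22 and -0.29 at 2 Gy, with 0.28 under median centring, and 0.07 on the only 10 Gy array with a value. DVL3 A_24_P283000 was not well above background in either channel on any Si306 array. AXIN2 A_24_P298027 was below it in both channels at 2 Gy and in Cy3 at 10 Gy, where it did not pass (0.10 ± 0.04, adjusted p = 0.0602, limma).

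The change with Si306 depended on the proton dose for 7 of the 10 genes by at least 1 probe. Of 19 probes 8 passed for the difference between Si306 + 10 Gy and Si306 + 2 Gy, each over its own PT control, 7 of them higher at 10 Gy and 1 lower. That is 42.1%, where 21.1% of all probes passed, 9.31% higher and 11.8% lower. DKK1 was the lower one, with a difference of -0.44 ± 0.05 (SE, adjusted p = 0.00031, limma). CTNNB1 A_23_P29495 was higher at 10 Gy by 0.36 ± 0.04 (adjusted p = 0.00032, limma), while the other CTNNB1 probe did not differ beyond its error (-0.05 ± 0.07, adjusted p = 0.64, limma). LEF1 A_24_P20630 fell less at 10 Gy, by 0.26 ± 0.06 (adjusted p = 0.0083, limma), a difference that read -0.04 under median centring. TCF7L2 A_23_P389588 and AXIN2 A_23_P148015 each gave 0.32, DVL3 A_23_P218884 0.28, and the DVL1 probes 0.24 and 0.18. Under median centring the differences of CTNNB1 A_23_P29495 and AXIN2 A_23_P148015 read 0.07 and 0.18 and no longer passed. That of CTNNB1 A_23_P29499 read -0.33 there, and that of DVL1 A_23_P201342 turned to -0.19. For WNT5A, WNT6 A_24_P208513 and FZD3 the differences were 0.06 ± 0.05, -0.01 ± 0.06 and 0.09 ± 0.08 (SE), and none passed. Without the first U87 Si306 + 2 Gy array, 5 probes passed.

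**Figure D4:**
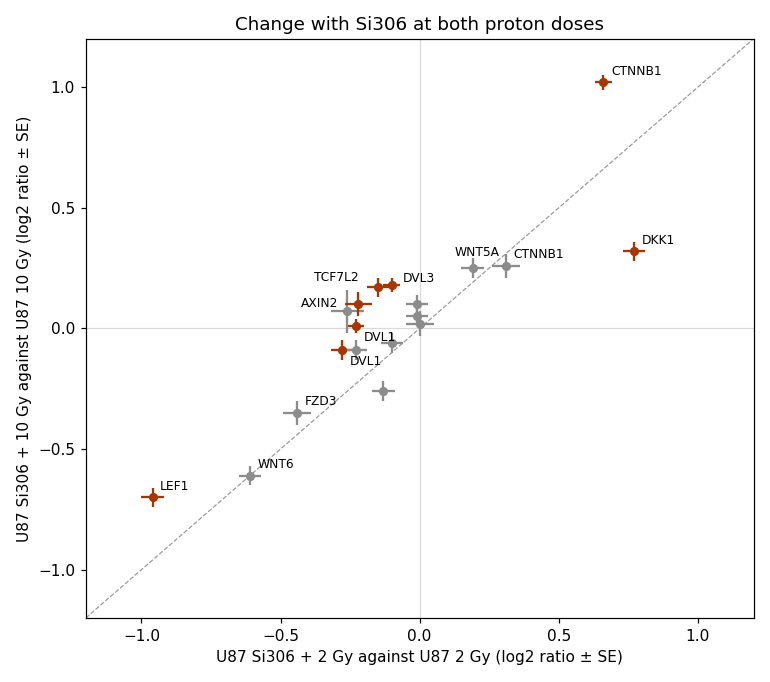
Log2 ratio with Si306 + 10 Gy against U87 10 Gy (y axis) over that with Si306 + 2 Gy against U87 2 Gy (x axis) for the 19 member probes, mean of 2 arrays with SE bars; the dashed line marks equal change, and red points passed an adjusted p of 0.05 for the difference between doses. DKK1 lies below the line (0.77 and 0.32) and CTNNB1 A_23_P29495 above it (0.66 and 1.02).

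Other genes of the pathway, none of them members, were drawn from 8 lists with 91 genes, of which 73 had a tested probe. After 2 Gy 27 were higher and 19 lower (37% and 26%, beside 32.1% and 24.8% of all gene names), and after 10 Gy 28 and 18 (38.4% and 24.7%, beside 31.1% and 26.2%). With Si306 + 2 Gy 19 were higher and 27 lower (26% and 37%, beside 38.2% and 27.7%), and with Si306 + 10 Gy 19 and 17 (26% and 23.3%, beside 34.9% and 26.9%). Under median centring the higher and lower counts were 43 and 17, 35 and 13, 42 and 21, and 42 and 14, and the median of all probes was 0.24, 0.20, 0.36 and 0.21. Of all gene names, 58.9%, 57.1%, 63% and 58.9% were higher and 26.2%, 24.6%, 26.7% and 22.1% lower in that scaling. In the 2-slide model the counts were 34 and 27, 34 and 25, 34 and 27, and 33 and 28 of 71 genes. There, 38.8%, 38.9%, 40.7% and 39.7% of all gene names were higher and 42.1%, 42%, 40.5% and 42.3% lower. Without the second U87 2 Gy array 12 genes were lower after 2 Gy, and without the second U87 10 Gy array 18 were higher after 10 Gy. With Si306 + 10 Gy, 10 were lower without its first array and 12 higher without its second. With the intensity curve, no list gene was past 2-fold. The U87 2 Gy and U87 10 Gy conditions serve as the control of the Si306 arrays, so the 2 sets of counts share a condition.

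Among the receptors, with 12 tested genes, 2 were higher and 6 lower after 2 Gy, and 2 and 7 after 10 Gy, where 32.1% and 24.8%, and 31.1% and 26.2%, of all gene names were. Under median centring the counts turned to 8 and 4, and 5 and 3 (beside 58.9% and 26.2%, and 57.1% and 24.6%). In the 2-slide model they turned to 9 and 2 at both doses (beside 38.8% and 42.1%, and 38.9% and 42%). FZD5, a Frizzled receptor, rose after 2 Gy (0.57 ± 0.04, adjusted p = 8.91e-07, limma) but read -1.16 in the 2-slide model. With Si306, 1 receptor was higher and 6 were lower at 2 Gy and 0 and 6 at 10 Gy. Of all gene names, 38.2% and 27.7%, and 34.9% and 26.9%, were. Under median centring the counts were 8 and 1 at both doses (beside 63% and 26.7%, and 58.9% and 22.1%). In the 2-slide model they were 9 and 2, and 8 and 2 (beside 40.7% and 40.5%, and 39.7% and 42.3%). With the intensity curve FZD2 was lowest at 2 Gy (-0.31) and FZD8 lowest at 10 Gy (-0.42). Both turned under median centring (0.56 and 0.11) and in the 2-slide model (1.04 and 0.07).

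Of the 10 tested Wnt ligands 3 were higher and 2 lower after 2 Gy, and 3 and 1 after 10 Gy, where 32.1% and 24.8%, and 31.1% and 26.2%, of all gene names were. Under median centring the ligand counts turned to 2 and 5, and 2 and 3 (beside 58.9% and 26.2%, and 57.1% and 24.6%). In the 2-slide model they were 5 and 3 of 9 genes at both doses (beside 38.8% and 42.1%, and 38.9% and 42%). WNT7B read 0.38 and 0.44 after 10 Gy (adjusted p = 1.03e-05, limma) and -0.69 in the 2-slide model. Of 3 genes for ligand secretion, PORCN, which attaches the lipid that Wnt ligands need, rose with Si306 + 2 Gy (0.43 ± 0.03) and with Si306 + 10 Gy (0.23 ± 0.03), though it read -1.08 in the 2-slide model at 2 Gy. GPR177, the carrier of Wnt ligands now named WLS, fell after 2 Gy (-0.36 ± 0.03) and read 0.24 under median centring.

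Of 8 secreted inhibitors 4 were higher and 1 lower with Si306 at each dose, where 38.2% and 34.9% of all gene names were higher. Under median centring the counts were 4 and 3 at 2 Gy and 4 and 2 at 10 Gy (beside 63% and 26.7%, and 58.9% and 22.1%). In the 2-slide model they were 3 and 4 at both doses (beside 40.7% and 40.5%, and 39.7% and 42.3%). DKK3, of the family of DKK1, rose at 10 Gy (0.47 ± 0.03, adjusted p = 6.22e-07, limma), with its other probes at 0.13 and 0.12 and a value of -3.99 in the 2-slide model. SFRP1, which binds Wnt ligands, rose at 10 Gy (0.40 ± 0.04, adjusted p = 1.1e-05, limma), while its second probe read 0.08 and did not pass. SFRP2 fell after 10 Gy of protons (-0.60 ± 0.04), and its 2 other probes fell less (-0.22 and -0.28).

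Of 12 cytoplasmic transducers 6 were higher and 3 lower after 2 Gy, where 32.1% and 24.8% of all gene names were. The counts were 10 and 1 under median centring (beside 58.9% and 26.2%) and 3 and 5 in the 2-slide model (beside 38.8% and 42.1%). AXIN1, the constitutively expressed paralogue of AXIN2, read 0.68 and 0.53 after 2 Gy (adjusted p = 8.09e-07, limma) and -0.44 in the 2-slide model. DVL2, the third Dishevelled gene, fell after both doses, to -0.57 ± 0.04 and -0.62 ± 0.04 (adjusted p = 2.97e-07 and 1.29e-07, limma), and read 0.01 and -0.14 under median centring. Of 12 nuclear partners 3 were higher and 6 lower with Si306 + 2 Gy and 3 and 1 with Si306 + 10 Gy. Of all gene names, 38.2% and 27.7%, and 34.9% and 26.9%, were. Under median centring the counts were 6 and 5, and 7 and 3 (beside 63% and 26.7%, and 58.9% and 22.1%). In the 2-slide model they were 5 and 6, and 5 and 5 (beside 40.7% and 40.5%, and 39.7% and 42.3%). TCF7L1, which mostly represses the targets, read 0.55 and 0.64 with Si306 + 10 Gy (adjusted p = 1.98e-07, limma) and rose in every scaling tried.

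Of 11 target genes 6 were higher and 2 lower after 2 Gy of protons and 5 and 2 after 10 Gy, where 32.1% and 31.1% of all gene names were higher. Under median centring these became 6 and 2, and 4 and 3 (beside 58.9% and 26.2%, and 57.1% and 24.6%). In the 2-slide model they were 4 and 4 of 10 genes at both doses (beside 38.8% and 42.1%, and 38.9% and 42%). With Si306, 2 were higher and 7 lower at 2 Gy and 1 and 5 at 10 Gy, where 27.7% and 26.9% of all gene names were lower. Under median centring these Si306 counts became 7 higher and 2 lower, and 6 and 0 (beside 63% and 26.7%, and 58.9% and 22.1%). In the 2-slide model they were 3 and 5 of 10 genes at both doses (beside 40.7% and 40.5%, and 39.7% and 42.3%). CCND1, a cell cycle cyclin, rose after both doses (0.58 ± 0.03 each, adjusted p = 8.87e-08 and 6.75e-08, limma), and its 2 other probes rose too, by 0.12 to 0.95. With Si306 + 10 Gy this CCND1 probe fell (-0.37 ± 0.03), while it read 0.21 under median centring and the other probes did not pass. MYC, a transcription factor, fell after 10 Gy (-0.79 ± 0.03, adjusted p = 5.18e-09, limma) and with Si306 + 2 Gy (-0.45 ± 0.03) and Si306 + 10 Gy (-0.71 ± 0.03). Its second probe read 0.08, 0.21 and 0.05 in these configurations, and median centring gave 0.62 at Si306 + 2 Gy and -0.03 at Si306 + 10 Gy. NKD2, an inhibitor of Dishevelled, rose with Si306 + 2 Gy by a probe with 71.7% GC (0.43 ± 0.04), though its second probe read 0.01 and the 2-slide model -0.03. BMP4, a growth factor, fell with Si306 + 2 Gy (-0.33 ± 0.03) and read 0.42 under median centring and 3.46 in the 2-slide model.

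Among the partners of beta-catenin at cell junctions, CTNNA1, which links cadherins to actin, fell after 2 Gy by both probes (-0.51 and -0.14), with 0.14 under median centring and 0.28 in the 2-slide model for the first. CDH11, a mesenchymal cadherin, rose after 10 Gy (0.49 ± 0.04, adjusted p = 6.39e-07, limma). For CTNND1, which binds cadherins, the brightest probe rose with Si306 + 2 Gy (0.44 ± 0.04), whereas its 3 other probes fell (-0.28, -0.47 and -0.26).

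The genes most like CTNNB1, WNT5A and WNT6 over the 8 arrays were found by the root mean square difference of log2 ratios. WNT5A was closest to PHF6, at 0.0407, followed by FHL2 (0.0827) and PCYT2 (0.106). WNT6 A_24_P208513 was closest to BBC3, a pro-apoptotic gene measured by a probe with 85% GC, at 0.0597, and then to LBX1 (0.0904, 55% GC). BBC3 read 2.28, 2.79, -0.55 and -0.64 in the 4 configurations. No gene came as close to CTNNB1 A_23_P29495, whose nearest was MMP2 at 0.373, with 0.83, 0.78, 0.54 and 0.65, followed by RRAD at 0.394. The arrays share slides and controls, and the measure is a description.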

How the data were processed

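U87 MG RNA was measured in 4 configurations on Agilent 2-colour arrays. Per the file headers, the authors' scanner software (Agilent Feature Extraction 9.5.3.1, array annotation on hg17) gave, for each of 45015 spots, mean intensities of the red and green signal, a local background for both, and their log10 ratio. The deposited series matrix holds the same log10 ratio rounded (largest difference 0.005). Deposited coordinates, gene names and probe sequences were used as given.

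Outlier spots were left out, and intensities were corrected with normexp (offset 50), normalized by loess within each scan, averaged over the spots of a probe, and then over the scans of an array. Of 41000 gene probes, 30418 were kept, the 19 member probes included, because 1 configuration or more had them well above background, by red or green, in 2/3 of its arrays. Models were fitted to 8 arrays with limma 3.58.1 in R 4.3.3 and adjusted by Benjamini-Hochberg over all probes. Intensities by channel were taken after Aquantile scaling. A list gene was represented by its brightest probe. Of the list genes, those named were the 3 highest and 3 lowest per configuration that passed and had the same sign on both arrays. For CTNNB1, WNT5A and WNT6 (brightest probe) the 3 nearest features were taken, and 2 of these that the array lists only by an identifier are not named. The bound of a dim channel used the dimmest signal well above background on each array. Members and lists were chosen with earlier results of these data known. The fit was tested on simulated data. Alternatives were other background corrections, scalings and filters, single scans as samples, and leaving out arrays. Another was a model of both channels that estimates a dye effect for every probe but no slide effect (the 2-slide model). The number of arrays limits the precision.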

Additional observations from a re-analysis of the deposited data

Results flagged for a closer look

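For 8 member probes, the change with Si306 differed between 10 and 2 Gy by limma's contrast of the doses, adjusted over all probes. DKK1 gave -0.44 (adjusted p = 0.00031). CTNNB1 A_23_P29495 gave 0.36 (adjusted p = 0.00032). TCF7L2 A_23_P389588 and AXIN2 A_23_P148015 each gave 0.32 (adjusted p = 0.00151 and 0.00686), and DVL3 A_23_P218884 gave 0.28 (adjusted p = 0.00257). LEF1 A_24_P20630 gave 0.26 (adjusted p = 0.0083), and the DVL1 probes A_23_P201342 and A_23_P347432 gave 0.24 and 0.18 (adjusted p = 0.00459 and 0.0456). Among all probes 21.1% passed this test. Under median centring LEF1 A_24_P20630 and DVL1 A_23_P201342 turned to -0.04 and -0.19, and CTNNB1 A_23_P29495 (0.07) and AXIN2 A_23_P148015 (0.18) no longer passed.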

How the results depend on the processing

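There were 2 arrays for each configuration and 1 slide for each kind of treatment. Many changes differed in size or direction with the scaling and with the link between slides. Members past 2-fold at 10 Gy numbered 2, and 5 with the scanner software's log10 ratio or the series matrix (3 of them higher), 4 under median centring, 4 in the 2-slide model and 1 with the brightest probe of each gene. With Si306 + 10 Gy, 16 member probes of 19 passed under median centring in place of 10, where 79.8% of all probes passed. Of the other pathway genes, 56 passed there under median centring and 61 in the 2-slide model in place of 36. Of all gene names, 58.9% were higher and 22.1% lower under median centring, and 39.7% and 42.3% in the 2-slide model. With the intensity curve 34.9% were higher and 26.9% lower. For PT at 10 against 2 Gy, 19 of the 73 pathway genes passed, and 12 with the scanner's ratio or the series matrix. Without both arrays that hold a scan of another label, 7 passed. For Si306 at 10 against 2 Gy, 22 of the 73 passed, where 21.1% of all probes did, and 44 under median centring. The share of all gene names is not given here for either difference between doses, so these counts describe the lists only.

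Scans treated as samples by their label gave 40 passing pathway genes for Si306 at 10 against 2 Gy, and with the replicate number as a block 38. With the block, 4 and 3 members were past 2-fold after 2 and 10 Gy, and 16 and 15 member probes passed with Si306 + 2 Gy and Si306 + 10 Gy. The shares of all probes with the block are not given here. Deviations of scans with the same replicate number correlated by -0.225 to 0.224 (median -0.00372, 36 pairs), so the numbers did not pair the samples. The block moved no other total by over 1.5 times. Counts by direction moved more, as lower member probes with Si306 + 10 Gy went from 4 to 7.

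Leaving out each array in turn gave 6 to 17 passing pathway genes for PT at 10 against 2 Gy. The count was 10 without the first U87 2 Gy array, 6 without the first and 7 without the second U87 10 Gy array. For Si306 at 10 against 2 Gy it gave 5 to 9 member probes, and 8 to 22 pathway genes, with 8 and 13 without the first and second Si306 + 2 Gy arrays and 9 and 10 without the first and second Si306 + 10 Gy arrays. The lone array of a configuration was then assumed to vary like the others.

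In the 2-slide model, values turned to -3.24 for WNT5A after 2 Gy, to -4.09 and -4.01 with Si306 + 2 Gy and Si306 + 10 Gy, to -0.98 and -0.54 for WNT6 A_24_P208513 and -0.67 and -0.68 for DVL1 A_23_P347432 after 2 and 10 Gy, and to 0.12 and 0.22 for FZD3 with Si306. With Si306 + 2 Gy they turned to 1.07 for TCF7L2 A_23_P389588 and to 1.17 and 0.25 for AXIN2 A_23_P148015 and A_23_P159395, and with Si306 + 10 Gy to -0.29 for DVL3 A_23_P218884. Among other genes they turned after PT to -0.44 (AXIN1), -1.16 (FZD5), 0.28 (CTNNA1) and -0.69 (WNT7B), and with Si306 to -1.08 (PORCN), -0.03 (NKD2), 1.04 (FZD2), 3.46 (BMP4), -3.99 (DKK3) and 0.07 (FZD8).

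Under median centring, values with Si306 + 2 Gy turned to 0.00 for WNT6 A_24_P208513, 1.04 for DVL1 A_23_P201342, 0.27 and 0.28 for DVL3 A_23_P218884 and A_24_P291588, and 0.23 for AXIN2 A_23_P148015, and the dose differences to -0.19 for DVL1 A_23_P201342 and -0.04 for LEF1 A_24_P20630. Other genes turned to 0.24 (GPR177), 0.14 (CTNNA1) and 0.01 (DVL2) after 2 Gy, to 0.56 (FZD2), 0.42 (BMP4) and 0.62 (MYC) with Si306 + 2 Gy, and to 0.21 (CCND1) and 0.11 (FZD8) with Si306 + 10 Gy. The cause was not tested. Among member values that passed or were past 2-fold, and among the named pathway genes, none turned under the other alternatives.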
